A study of Arabidopsis thaliana with 4 samples.

Results

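The comparison described here sets polysomal RNA against non-polysomal RNA of unstressed Arabidopsis thaliana. It uses 2 of the 4 arrays of the study, 1 per fraction, and each of the 22746 probe sets other than controls gives 1 ratio. The non-stress non-polysomal RNA is labelled as mRNA that is free or carries 1 ribosome, and the non-stress polysomal RNA as mRNA carrying more than 1. The labels name no tissue, age, ecotype or genotype, and no plant number or pooling. The other 2 arrays hold the same fractions of plants under dehydration stress, which are labelled in the same way, and they are used only for values set beside those of unstressed plants. With 1 array per fraction there was no replicate check. No difference was tested, genes are named by size, and the number of arrays limits the precision.

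A ribosome that starts on an mRNA is followed by others while the transcript is being read, so an mRNA in active use carries a string of ribosomes and sediments as a polysome. An mRNA that is stored, repressed or not yet exported stays free or with a single ribosome. Transcripts of the nucleus are read by cytosolic ribosomes, while plastids and mitochondria read their own transcripts inside the organelle on ribosomes of bacterial type.

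Ratios are log2 of polysomal over non-polysomal signal after both arrays were brought to the same trimmed mean. It places a transcript against the average one and does not give the fraction of its copies that sits on polysomes. Since the fractions are bulk RNA, fewer cells of a type and less RNA per cell cannot be told apart. Signals under 69.9 were raised to that value, which lay above 18.8% of the probe sets on the non-polysomal array and 27.4% on the polysomal one. Of the probe sets, 11373 were bright enough to be called measured, and these gave 5978 named loci, each by its brightest probe set.

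Both arrays shared hybridization time, chip lot and fluidics station in their file headers. The dehydration polysomal array shared only the lot with the non-stress polysomal one, and the dehydration non-polysomal array was not compared. The ratio of 3′ to 5′ signal, a sign of RNA integrity, was 3.08 and 3.04 for the actin control on the non-polysomal and the polysomal array, and 1.76 and 1.79 for ubiquitin. For GAPDH it was 2.24 and 1.22. The 5S rRNA probe set read 4383 in the non-polysomal and 845.8 in the polysomal fraction. Of 18 probe sets for hybridization controls 17 had a ratio below 0, with a mean of -0.48. The part of these differences in the results was not tested. Only 1 of 5 leaf, 1 of 4 root, 1 of 3 pollen and none of 3 seed markers had a named probe set. The leaf marker RCA, Rubisco activase, read 23857 in the non-polysomal and 19238 in the polysomal fraction, the root marker PYK10 read 197 and 72.9, and the pollen marker AT5G45880 read 179 and 42.1.

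Over all named loci the log2 ratio had a median of -0.11 and an SD of 0.83, and the middle 90% of loci lay between -1.54 and 1.17. Higher by 2-fold or more in the polysomal fraction were 455 loci, 7.61% of those measured, and 773, 12.9%, were lower by as much. Over all measured probe sets, named or not, these shares were 8.56% and 11.9%. Median scaling would move the median of all probe sets up by 0.37 and scaling on the spiked hybridization controls by 0.47, so the balance of higher and lower loci depends on the scaling. For this reason list medians are given relative to the median of all named loci. Between the 2 brightest probe sets of the same locus (48 loci) the ratio differed with an SD of 0.597; this is a spread within these arrays and not between samples.

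The ratio varied with brightness. In the dimmest decile of loci the median ratio was -0.35, with 5.02% of loci past 2-fold upward and 17.7% past it downward. In the brightest decile it was 0.21, with 14% higher and 7.69% lower. Lists of abundant transcripts are therefore also given relative to loci of their own brightness decile.

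**Figure D1:**
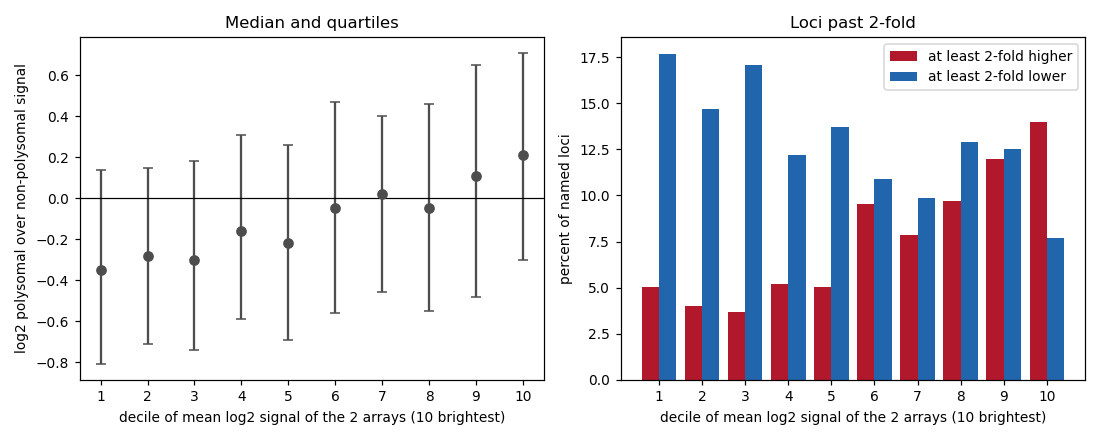
Named loci split into deciles of their mean log2 signal on the 2 non-stress arrays; the left panel gives the median log2 ratio of polysomal over non-polysomal signal with bars to the quartiles, and the right panel the percentage of loci past 2-fold in each direction. The median climbs from -0.35 in the dimmest decile to 0.21 in the brightest.

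Hydrolases and a hydrolase inhibitor were among the 20 loci with the largest ratios. BGLU33, a beta-glucosidase, read 188 in the non-polysomal and 1006 in the polysomal fraction, a log2 ratio of 2.42. AT3G54400, an aspartic protease, read 454 and 2364, a ratio of 2.38. CYS1, a cystatin that inhibits cysteine proteases, read 486 and 2249.8 (2.21). These 3 transcripts were between 4.63-fold and 5.35-fold brighter in the polysomal fraction. AT1G67865, a locus next to the high-ranking AT1G67860, was at 2.43, and AT1G67860 itself at 3.03. AT2G20690, a riboflavin synthase, was at 2.50, and AT3G24080, of the KRR1 family of ribosome assembly proteins, at 2.31. Under dehydration BGLU33, AT3G54400 and CYS1 were at 2.19, 1.24 and 2.36.

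At the bottom, beside mitochondrial sequences described next, stood a mixed set. SBT3.12, a subtilisin-like protease, read 653 in the non-polysomal and 72.4 in the polysomal fraction, a ratio of -3.17. AT4G00560 read 625 and 51.3, and since its polysomal signal lay under the limit its ratio is at most -3.16. AT5G58200 read 2085 and 236 (-3.14) and AT5G27730 read 3372 and 398.9 (-3.08). Under dehydration these 4 were at -2.11, at most -3.41, -2.35 and -2.41. Among the 40 loci at the 2 ends, AT1G05340 was the locus whose ratio turned round between conditions, from -4.15 to 0.95.

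**Figure D2:**
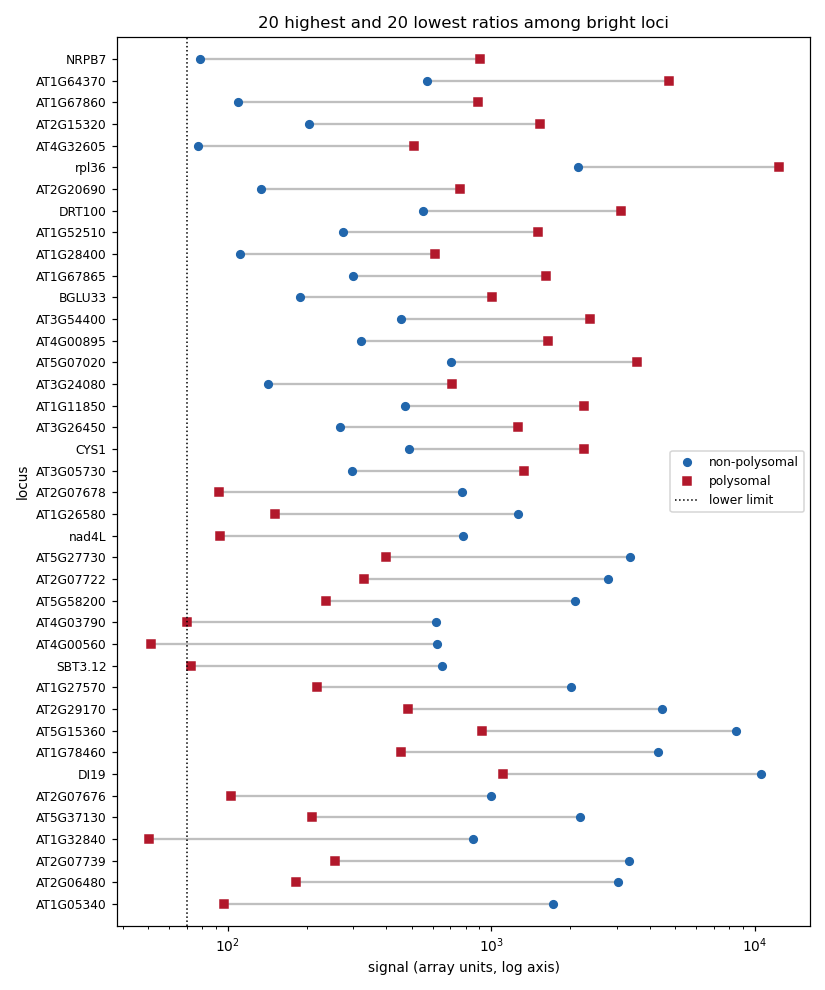
Signals on the non-polysomal (circles) and polysomal (squares) array, log axis, for the 20 highest and 20 lowest ratios among named loci whose brighter signal reached 4 times the limit. The upper 20 run from NRPB7 at 3.53 to AT3G05730 at 2.17, the lower 20 from AT2G07678 at -3.06 to AT1G05340 at -4.15, and 2 polysomal signals lie under the limit.

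The respiratory chain is built from subunits of both genomes, and their transcripts lay far apart. Of 16 mitochondria-encoded genes with a named probe set 11 were measured, and all 11 were at least 2-fold lower in polysomal RNA, against 12.9% of all named loci. The 6 nad transcripts, for core subunits of complex I (NADH dehydrogenase), ranged from -3.07 to -1.06. For nad4L the signals were 785 in the non-polysomal and 93.8 in the polysomal fraction, and for nad4, the highest of them, 1296 and 621. The transcript of cox1, the catalytic subunit of cytochrome oxidase, read 2184 and 348, which is 6.28-fold lower in the polysomal fraction. The 3 ccb transcripts, for cytochrome c maturation, were at -1.49, -2.02 and -2.49. The list median was -1.95 relative to all named loci, and -1.35 in the dehydration pair, which shares no array with this one. The 4 measured probe sets for nad1 gave -1.30, -1.32, -2.58 and -3.30, so that probe sets for a single mitochondrial gene spread over 2 log2 units while lying on the same side.

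A copy of mitochondrial DNA lies inserted in chromosome 2, and 34 loci of that region, 16 of them measured, were gathered after the lowest loci had been seen. All 16 were at least 2-fold lower in polysomal RNA, against 12.9% of all named loci, with ratios from -3.70 to -1.11 and a median of -2.23 relative to all named loci. Because the region was chosen after some of its loci had been seen at the bottom, this count is not independent of that choice. AT2G07741 read 4237 in the non-polysomal and 609 in the polysomal fraction, and AT2G07721 read 1526 and 189. For 13 of the 16 the probe set name marks probes that also match other sequences, so signal from the nuclear copy and from the mitochondrion cannot be told apart. Without such probe sets the median was -1.55, and it was -1.34 with dim loci kept. Under dehydration it was -1.06.

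The nuclear-encoded subunits of the same complexes were on the other side. Of 27 measured complex I subunits, all of those with a named probe set, 19 lay above the median of all named loci and 8 were at least 2-fold higher, against 7.61% of all named loci; 1 was at least 2-fold lower. The list median was 0.77 relative to all loci and 0.49 relative to loci of the same brightness. AT3G03100, the B17.2 subunit, read 750.4 in the non-polysomal and 2108 in the polysomal fraction, a ratio of 1.49. AT4G16450 read 967 and 3025 (1.64), and AT5G18800, a subunit of the NDUFA8 type, read 266 and 688 (1.37). These 3 were more than 2-fold brighter in the polysomal fraction, while the mitochondrial nad partners were more than 2-fold dimmer. The lowest member was AT2G47690, at -1.10.

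Subunits of complexes III, IV and V made from nuclear genes had a median of 0.51, or 0.32 relative to the same brightness, and 20 of 23 lay above the median of all loci. Both cytochrome c1 genes were high, AT5G40810 at 1.27 (1569.5 and 3781 in non-polysomal and polysomal RNA) and AT3G27240 at 0.94 (1244 and 2391). AT3G52730, a small subunit of the same complex III, was at 1.0. At the low end stood AT1G80230, a COX5B subunit of cytochrome oxidase, at -0.31, and AT5G61310, of the COX5C type, at -0.45. Higher by 2-fold or more were 2 of the 23, or 8.7%, and none was lower by as much, where all named loci had 7.61% higher and 12.9% lower. The mitochondria-encoded list overlapped the nuclear lists only through its highest transcript (nad4, -1.06) and the lowest nuclear one (AT2G47690, -1.10). Under dehydration the nuclear complex I list was at 0.30 and the list of complexes III, IV and V at 0.21.

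**Figure D3:**
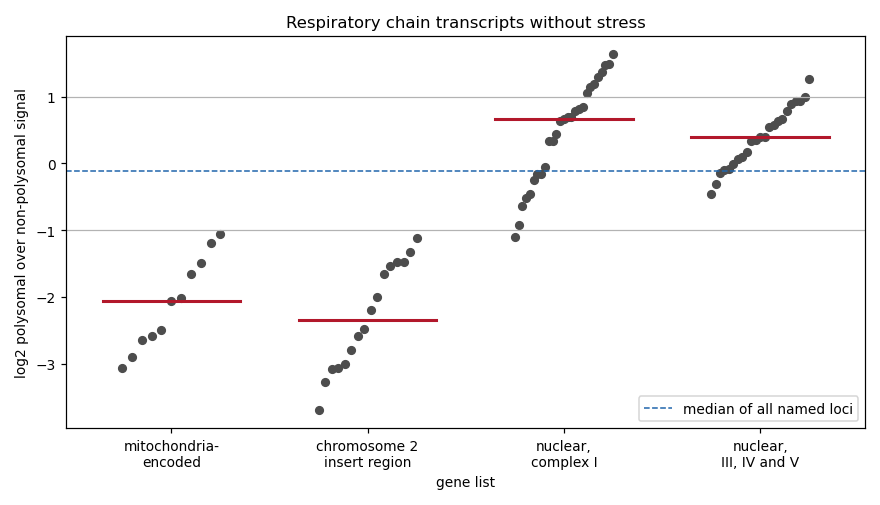
Log2 ratios of polysomal over non-polysomal signal for single transcripts (dots, sorted within a list) of the mitochondria-encoded genes, the chromosome 2 region of inserted mitochondrial DNA, the nuclear subunits of complex I and those of complexes III, IV and V; red bars are list medians, grey lines mark 2-fold and the dashed line the median of all named loci. The first 2 lists lie wholly at or below -1.06, and the nuclear lists run from -1.10 to 1.64.

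Plastid-encoded transcripts did not share the position of the mitochondrial ones. All 69 plastid genes with a named probe set were measured, 7 of them higher by 2-fold or more, 6 lower by as much and 56 between, where all named loci had 7.61% higher and 12.9% lower. Their list median was -0.25 relative to all named loci and -0.56 relative to loci of the same brightness. By complex, the median relative to all loci was -0.38 for the NDH complex, which carries electrons around photosystem I, -0.38 for cytochrome b6f, -0.26 for photosystem II, -0.10 for the ATP synthase and 0.0 for photosystem I. Relative to loci of the same brightness these medians were -0.70, -0.69, -0.57, -0.42 and -0.31, in the same order. The groups overlapped.

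A run of neighbouring ribosomal protein genes stood apart within the plastid. In gene order rpl36, rpl14, rpl16, rps3, rpl22 and rps19 were at 2.53, 1.74, 2.05, 1.06, 1.89 and 1.85. All 6 were at least 2-fold higher in polysomal RNA, where all named loci had 7.61%. Together with atpF they are all of the plastid-encoded genes that were higher by as much. The signals were 645.5 in the non-polysomal and 2154 in the polysomal fraction for rpl14 and 2850.5 and 10559 for rpl22. The other 9 plastid-encoded ribosomal protein transcripts lay between -1.53 (rps14) and 0.06 (rps2), so the sets did not overlap. The neighbour rpoA, on the far side of rpl36, was at -0.13. Under dehydration the 6 were at 0.99, 0.89, 0.15, 0.93, 1.46 and 1.33. The run was picked out after the values had been seen, so neither its count past 2-fold nor its separation from the other 9 is independent of that choice.

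Within other plastid complexes single members departed from their partners. atpF, of the ATP synthase stalk, read 2343 in the non-polysomal and 7458 in the polysomal fraction (1.67), while its neighbours atpA and atpH were at 0.04 and -0.60. petA, for cytochrome f, was at 0.86 and petD, for subunit IV of the same complex, at -1.25. psbC and psbD, for core antenna and reaction centre proteins of photosystem II, were at 0.60 and 0.47. psbA, whose product D1 is the fast-turning reaction centre protein, read 20649 in the non-polysomal and 5356 in the polysomal fraction, a ratio of -1.95. rpoB, a subunit of the plastid RNA polymerase, was at -1.39 and rpoC2, of the same enzyme, at 0.59.

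**Figure D4:**
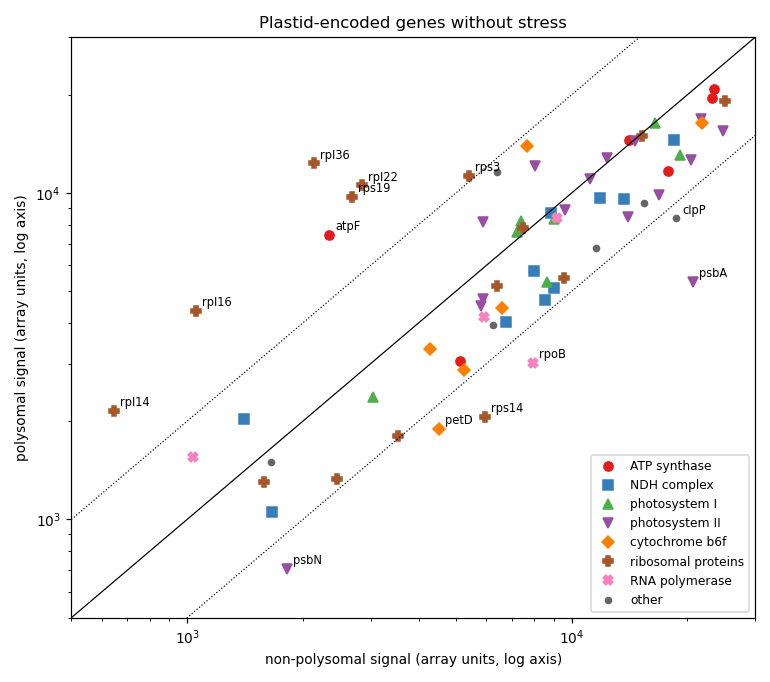
Non-polysomal (horizontal) against polysomal signal (vertical), both on log axes, of the 69 plastid-encoded genes, marked by complex, with the line of equality and dotted lines at 2-fold; genes past 2-fold are named. The 6 ribosomal protein genes from rpl36 to rps19, with atpF, lie above the upper dotted line, and psbA, rps14, rpoB, psbN, petD and clpP below the lower one.

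Nuclear genes for the same organelle were mostly on the high side. Plastid and mitochondrial ribosomal proteins made in the cytosol had 10 of 11 members above the median of all loci, with a list median of 0.59. Thylakoid lumen proteins had 12 of 15 above and a median of 0.52, led by AT4G02530, at 1314 and 4186.5 in non-polysomal and polysomal RNA (1.67). Photosystem and light-harvesting proteins had a median of 0.53, or 0.22 relative to the same brightness. The 3 genes for the antenna protein LHCB4 differed, LHCB4.3 at 2.12 (1734 and 7515), LHCB4.2 at 0.45 (8029 and 10992) and LHCB4.1 at -0.11 (21979 and 20414). The dimmest of the 3 thus had the highest ratio.

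In carbon metabolism of the plastid and its photorespiratory loop, 7 of 8 transcripts lay above the median of all loci (list median 0.69, or 0.37 relative to the same brightness). The mitochondrial glycine decarboxylase components AT1G11860 (T protein) and AT1G32470 (H protein) were at 1.25 and 1.16, and glycerate kinase, AT1G80380, at 1.01. SBPASE and PRK, enzymes that regenerate the acceptor of carbon dioxide, were at 0.56 and 0.31, and RCA at -0.31. CLPP4, a subunit of the plastid Clp protease, read 1289.8 in the non-polysomal and 4517 in the polysomal fraction (1.81), while its plastid-encoded partner clpP read 18709 and 8358.5 (-1.16). Pentatricopeptide repeat proteins, which process organelle transcripts, had a median of 0.29 over 26 members and spanned -1.04 (CRR28) to 2.0 (CRR21), both of which are factors for the plastid NDH transcripts.

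Transcripts for the translation machinery were not uniform. Initiation factors, which bring mRNA and the first tRNA to the ribosome, had a median of 0.85, with 4 of 14 at least 2-fold higher (7.61% of all named loci) and 11 above the median of all loci. AT2G34970, the epsilon subunit of the exchange factor eIF2B, read 130 in the non-polysomal and 520 in the polysomal fraction (2.0), and AT4G20980, eIF3d, read 421 and 1317 (1.64). Both eIF1A genes were high, AT5G35680 at 1.30 and AT2G04520 at 1.27. The small eIF1 (SUI1) proteins differed, with AT1G54290 at 0.45, AT5G54940 at -0.28 and AT4G27130 at -1.06. Aminoacyl-tRNA synthetases had a median of 0.43, with 11 of 16 above. Ribosome assembly factors had a median of 0.33, from AT4G12600 at -1.16 to AT3G05060, a NOP5-type nucleolar protein, at 1.23.

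Cytosolic ribosomal proteins lay nearer the middle. The small subunit had 33 of 40 transcripts above the median of all loci and a list median of 0.45, or 0.17 relative to the same brightness. The large subunit had 43 of 72 above and a median of 0.12, which turned to -0.15 relative to the same brightness and to -0.24 under quantile normalization. Both genes for protein L4 were high, AT3G09630 at 1.18 and AT5G02870 at 1.11. The acidic stalk protein P0, AT3G09200, read 13627.5 in the non-polysomal and 6730.2 in the polysomal fraction (-1.02), L12, AT5G60670, was at -1.28, and AT3G14600, L18a, was the lowest at -1.57. Of the genes for S3a, AT3G04840 was at 1.10 and AT4G34670 at -0.52. Near-identical copies can share probes, so single members are uncertain. In the dehydration pair the medians were -0.07 and -0.52.

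Among nuclear and RNA-binding proteins, 7 of 8 histones lay above the median of all loci, and the list of spliceosome and LSM proteins lay below it. All 5 histone H2B transcripts were above the median of all loci, HTB11 at 156.5 and 457 in non-polysomal and polysomal RNA (1.55), AT2G28720 at 1.53, HTB4 at 1.47, HTB1 at 0.93 and AT2G37470 at 0.50. The linker histones AT1G06760 and AT2G30620 were at 0.89 and 0.49, while HIS1-3, the drought-inducible linker histone, read 439 and 189 (-1.22). Its ratio under dehydration was 0.49. The spliceosome and LSM proteins, which include LSM1A and LSM1B of the cytoplasmic decapping ring, had a median of -0.85 and all 7 measured members below the median of all loci. LSM6B read 1041 in the non-polysomal and 461 in the polysomal fraction (-1.18), LSM3B read 388.5 and 181 (-1.10) and PRP39 read 1214 and 613 (-0.99). In LSM1 and LSM6 both paralogues were below, LSM1A at -0.96 and LSM1B at -0.68, LSM6A at -0.41 and LSM6B as given. Under dehydration the list was at -0.74.

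Of the bHLH, bZIP and GRAS, TCP and MADS transcription factors none was at least 2-fold higher, against 7.61% of all named loci. Their list medians of signal ran from 264.3 (GRAS, TCP and MADS, polysomal) to 734.6 (bHLH, non-polysomal). In brightness deciles 2 to 5, counted from the dimmest, only 3.68% to 5.19% of loci were higher by as much, and in decile 6 9.53%. The bHLH factors had 5 of 22 above the median of all loci and a list median of -0.20, with MYC3, of the jasmonate response, highest (269 and 519.7, 0.95) and AT4G01460 lowest (739 and 246, -1.59). The GRAS, TCP and MADS factors had 1 of 8 above and a median of -0.33, which turned to 0.05 when dim loci were kept. AGL18 and AGL42, MADS factors linked to flowering, were at -1.47 and -1.30. Of the bZIP factors 8 of 10 were above, their median being 0.15. The membrane-anchored BZIP17 and BZIP28 of the endoplasmic reticulum stress response were at 0.03 and -0.03, and BZIP60, of the same response, at -0.63.

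Some transcripts carry a conserved upstream open reading frame whose peptide stalls or diverts ribosomes before the main coding sequence. The 22 measured members had a median of -0.16. None was higher by 2-fold or more and 2 were lower by as much, where all named loci had 7.61% higher and 12.9% lower. AT3G25570, an S-adenosylmethionine decarboxylase of polyamine synthesis, read 319 in the non-polysomal and 214 in the polysomal fraction (-0.58). BZIP53 read 1290.4 and 621 (-1.05) and CPUORF47 read 400.4 and 191 (-1.07), while AT1G36730, an eIF5 gene, was highest at 0.92. The list as a whole thus lay within the middle range of all loci.

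Receptor kinases lay around the median of all loci and intracellular immune receptors below it. Leucine-rich repeat and other receptor kinases had a median of 0.02 with 5 of 35 higher by 2-fold or more and 5 lower by as much, where all named loci had 7.61% and 12.9%. AT3G28040 read 564 in the non-polysomal and 1629 in the polysomal fraction (1.53), and at the other end AT5G59650 read 689.5 and 91.2 (-2.92) and AT1G34110 read 828 and 148.5 (-2.48). The intracellular NLR and TIR-domain receptors of pathogens were lower, with 4 of 20 above the median of all loci and a list median of -0.51, or -0.10 when dim loci were kept and -0.01 over bright loci alone (filter at percentile 75). AT4G16920 read 907 in the non-polysomal and 216 in the polysomal fraction (-2.07) and AT5G51630 read 453 and 154 (-1.56). None of these was at least 2-fold higher.

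Transcripts for secreted and vacuolar hydrolases held some of the largest ratios and also some of the smallest. Of 29 aspartic proteases with a named probe set 17 were measured, with 8 at least 2-fold higher (7.61% of all named loci) and a median of 0.97. AT3G52500 read 461 in the non-polysomal and 1676 in the polysomal fraction (1.86), AT3G61820 read 1218 and 4326.5 (1.83), and AT1G01300 read 522 and 1320.4 (1.34). Against these AT3G02740 was at -1.79. Subtilases ran from SBT3.12 and AT5G44530 (-3.17 and -2.89) to AT3G14067, which read 732 and 3082 (2.07), with a median of 0.63. GDSL lipases ran from AT1G56670 at -2.16 to AT2G04570 at 1.91, around a median of 0.18. With dim loci kept, the medians of aspartic proteases and subtilases were 0.05 and -0.15, so the direction of the subtilases depends on the brightness filter.

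The cell wall and its signals were nearer the middle. Pectin-modifying enzymes had a median of -0.12 and wall polysaccharide synthases of -0.06. Among small secreted peptides STOMAGEN, the peptide that promotes stomata, read 4141 in the non-polysomal and 863 in the polysomal fraction (-2.26, -2.10 under dehydration). CLE41 and CLE44, genes for the same vascular peptide TDIF, were at -1.47 and -0.76. The RALF peptides RALFL22, RALFL24, RALFL33 and RALFL34 lay between 0.08 and 0.24, close to even. Expansins and XTHs, which loosen walls, had a median of 0.17, with EXPA8 at 0.56 and EXLB1 at -1.22.

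Several families of enzymes for small molecules had high medians, which depended on the brightness filter. UDP-glycosyltransferases, which add sugars to hormones, pigments and foreign compounds, had 18 of 52 members measured, 7 of them higher by 2-fold or more (7.61% of all named loci), none lower by as much (12.9%) and a median of 0.91. UGT78D2 and UGT78D1, which glycosylate flavonoids, read 754 in the non-polysomal and 1927 in the polysomal fraction and 535 and 1176, ratios of 1.35 and 1.14, and UGT72E1, which acts on lignin precursors, was at 1.39. CHIL, a chalcone isomerase-like protein of the same pathway, was at 1.25. With dim loci kept the median of the UDP-glycosyltransferases was 0.05. Cytochromes P450 had a median of 0.64, or -0.01 with dim loci kept. Of the subunits of ATP-citrate lyase, which supplies cytosolic acetyl-CoA, ACLA-3, ACLB-1, ACLA-1 and ACLA-2 were at 0.74, 0.56, 0.22 and 0.08.

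Antioxidant enzymes and the LEA, dehydrin and cold-regulated proteins shared the highest list median, 1.17, each with few members. The 4 antioxidant transcripts were PRXIIF, the mitochondrial peroxiredoxin (465 and 1457 in non-polysomal and polysomal RNA, 1.65), AT3G11630, a plastid 2-Cys peroxiredoxin (5428 and 12896, 1.25), and the thylakoid and stromal ascorbate peroxidases TAPX (0.87) and SAPX (0.85). Thioredoxins and glutaredoxins had 3 of 10 at least 2-fold higher (7.61% of all named loci) and a median of 0.76, or 0.16 with dim loci kept. GRXC2 read 939 in the non-polysomal and 3097 in the polysomal fraction (1.72) and TRXF2, a plastid thioredoxin that activates carbon fixation enzymes, read 1061.5 and 3042 (1.52). GSTU20, a glutathione transferase, read 1323 and 5244.5 (1.99).

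In protein folding and the cytoskeleton, heat shock proteins and chaperones had a median of 0.98 over 6 members, or 0.24 with dim loci kept. The co-chaperones Hop1 and Hop2 were at 0.82 and 1.04, and AT3G09440, a cytosolic HSP70, read 4898 in the non-polysomal and 9413 in the polysomal fraction (0.94). The ring chaperonin CCT, which folds actin and tubulin, had 7 of 8 subunits above the median of all loci (list median 0.36, or 0.10 relative to the same brightness). Of its clients, ACT11 was at 1.19 and the beta-tubulins TUB5, TUB6, TUB7 and TUB9 were at 0.57, 0.89, 0.94 and 0.83. Of the alpha-tubulins TUA1 was at 0.56 and TUA6 at -0.94. Proteasome subunits had a median of 0.44, with AT1G75990 highest at 1.39.

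In membranes and trafficking the vacuolar proton pump showed a spread by subunit. AT3G58730 (subunit D), AT4G02620 (F) and AT3G42050 (H), all of the cytosolic sector that splits ATP, were at 1.76, 0.95 and 0.66. For AT3G58730 the signals were 1255 in the non-polysomal and 4263 in the polysomal fraction. In the membrane sector VHA-A1, VHA-A2 and VHA-A3 were at 0.29, -0.30 and 0.33, and AT4G26710 and AT5G55290, the small subunit e, at -1.23 and -1.54. Among the transcripts named here, the 3 of the cytosolic sector were above every membrane-sector one. The list has 9 measured members, not all of which are named. Components for entry into the secretory pathway had a median of 0.16 and none of 19 past 2-fold, where all named loci had 7.61% higher and 12.9% lower. Autophagy proteins had 8 of 10 above and a median of 0.38. Ion and nutrient transporters had a median of 0.58, or -0.09 with dim loci kept. Of these GTR1, a glucosinolate transporter, was at 1.22 and its partner GTR2 at 0.21. SAG29, a sugar transporter of the SWEET family, read 459 and 100.4 (-2.19), while the other SWEET members lay between 0.02 and 0.76.

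Genes named for drought and cold were split even without stress, and their list median of 1.17 was 0.05 with dim loci kept. COR47, a dehydrin, read 978 in the non-polysomal and 2553.5 in the polysomal fraction (1.38), and the plastid-targeted COR15A and COR15B read 1349 and 2701 (1.0) and 1232 and 2674 (1.12). LTI30, another dehydrin, read 455 and 240.3 (-0.92). LEA4-5 read 352 and 63, so with its polysomal signal under the limit the ratio is at most -2.33. Under dehydration these 5 were at 2.11, 1.33, 1.53, 1.99 and 1.24. Lipid-transfer proteins had a median of 0.52, or -0.13 with dim loci kept, with AT1G62510 at 1.57 (359 and 1066) and AT2G10940 at 1.47 (4143.5 and 11447), against AT3G53980 at -2.52 or less (402 and 34.9). LEA4-5 and AT3G53980 passed the brightness filter only through their dehydration signals.

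Set side by side over 70 lists with at least 4 measured members, 23 had a median 0.5 or more above that of all named loci and 4 a median 0.5 or more below. Relative to loci of the same brightness these numbers were 13 and 8, and with dim loci kept only 7 lists were 0.5 or more above. The dehydration pair came from plants of another treatment, and its polysomal array had another hybridization time and station. It put 54 of the lists on the same side of its own median, and 22 of the 23 high ones. Without stress 50 of the 70 lists lay above the median of all named loci and 18 below. How many lists would share a side without any relation between the pairs was not worked out. Of the loci past 2-fold on the high side in unstressed plants 58.9% were also past it in the dehydration pair, and of those past it under dehydration 56.4% were so without stress. For the lower loci the shares were 64.7% and 64.3%. By comparison, of all 5978 named loci 475 were past 2-fold on the high side under dehydration and 778 on the low side. Without stress these numbers were 455 and 773. Some lists overlap, the plastid complexes being parts of the plastid-encoded list.

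**Figure D5:**
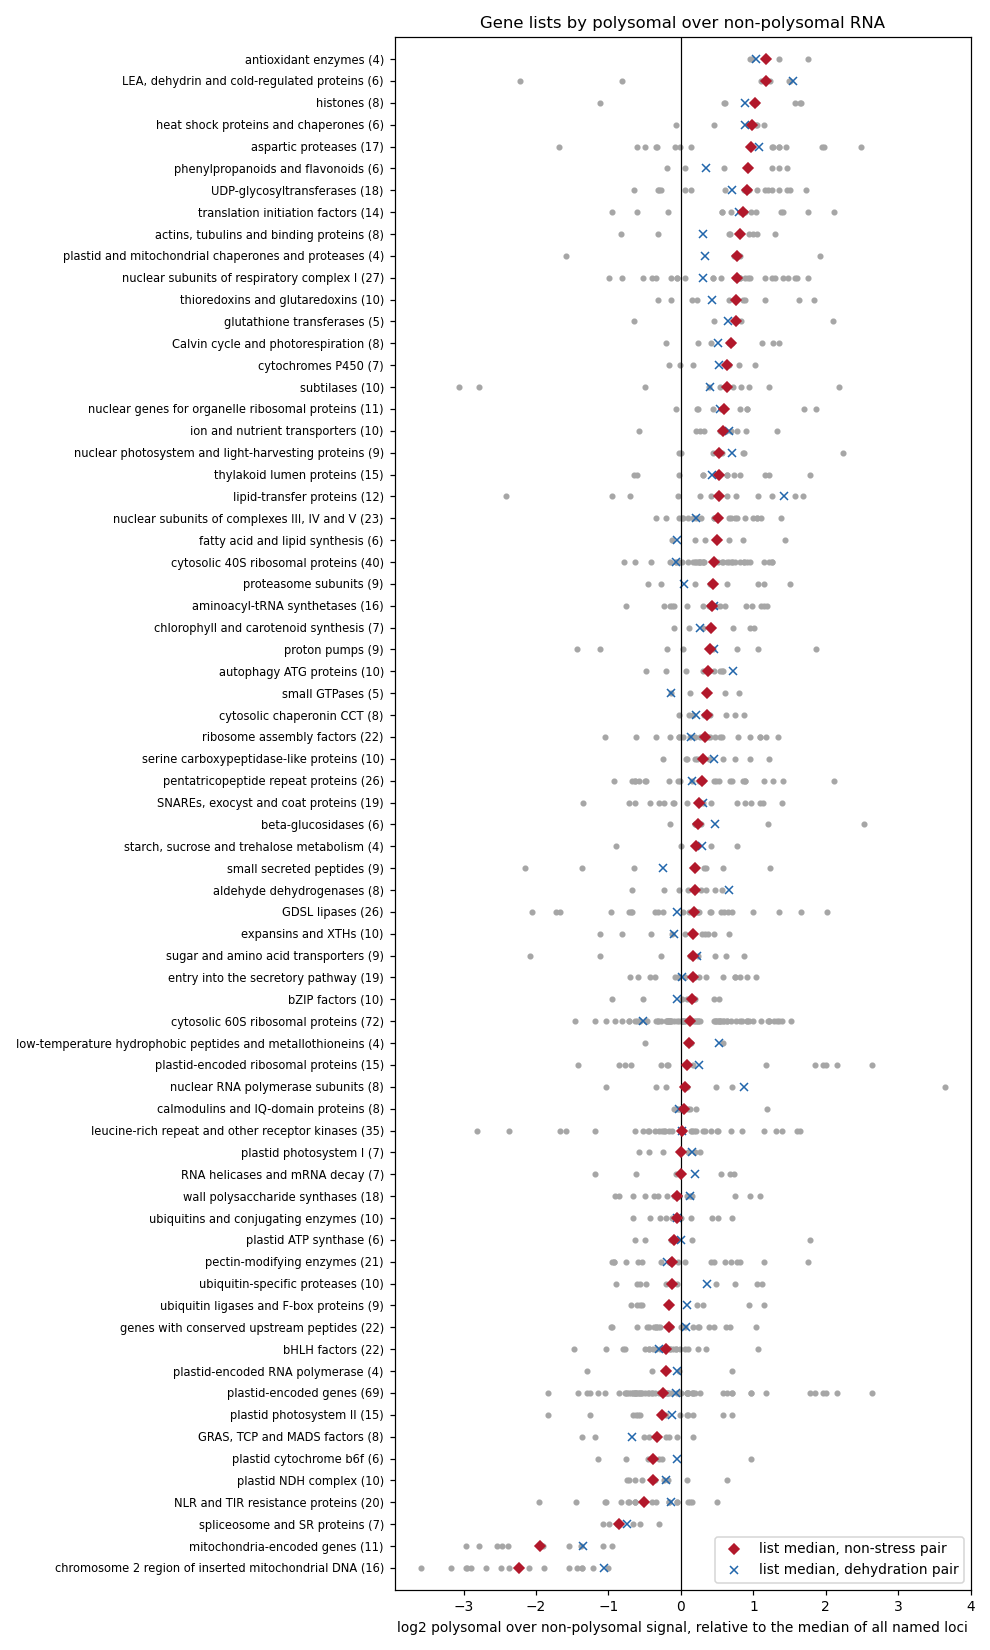
Members (grey dots) and medians (red diamonds) of each list with at least 4 measured loci, as log2 polysomal over non-polysomal signal relative to the median of all named loci, with the number of measured loci in brackets; blue crosses give the median of the same loci in the dehydration pair. Mitochondrial sequences lie farthest to the left, at -2.23 and -1.95, followed by spliceosome proteins at -0.85, and antioxidant enzymes and LEA proteins lie at 1.17 on the right.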

How the data were processed

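Non-polysomal and polysomal RNA of unstressed plants, 1 array each, was measured on Affymetrix ATH1 arrays, per the file headers. The deposited table holds the authors' signal intensity on a linear scale for 22810 probe sets. No source used here gives the RNA labelling method. Those intensities deposited by the authors had a mean of 500 on each array after 2% of values were trimmed from each end.

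Arrays were brought to an equal 2% trimmed mean, a lower limit of 69.9 was set (percentile 25 of each array, then the median of the 4), and log2 differences of the deposited intensities were formed. The 64 control probe sets were left out. A probe set was measured where its mean log2 signal over 4 arrays reached the median, 7.74. A signal under the limit gives only a bound. Python 3 with pandas 2.3.3 and numpy 2.4.6 was used, and the calculation was tested on simulated data.

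Of the probe sets 13513 have 1 gene symbol, 503 several and 8730 none here, and 13436 were matched by identifier to the TAIR10.1 gene table for current names. Most lists were entered by locus from general knowledge of the genome or by symbol, so they are partial. The members and lists were chosen with earlier results of these data known. Genes named are the 20 highest and 20 lowest bright loci and, of each list, up to 4 members farthest above and 4 farthest below the median of all named loci, or any member of a list with 8 or fewer. Members outside these rules, as in the runs of plastid and chromosome 2 loci and among paralogues, were chosen after their values were seen. No test or p-value was computed. Alternatives covered scaling, the lower limit, the brightness filter, shared probe sets and averaging over probe sets. Protein length was not analysed here.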

Additional observations from a re-analysis of the deposited data

Results flagged for a closer look

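Opposite positions in the non-stress and the dehydration pair called attention to 4 transcripts and 4 lists. None of these differences was tested, and with 1 array per group none has a replicate check. The log2 ratio of AT3G53980, a lipid-transfer protein, was higher under dehydration by at least 5.17, that of LEA4-5 by at least 3.58, that of the expansin-like EXLB1 by 3.29 and that of the lipid-transfer protein AT4G33550 by 2.91. All 4 were at least 2-fold lower in polysomal RNA without stress and at least 2-fold higher under dehydration. The brightness filter used all 4 arrays. Over the 2 non-stress arrays alone AT3G53980 and LEA4-5 lay under its value of 7.74, so they count as measured only through their dehydration signals. Their turns are therefore not independent of the filter. Relative to all named loci, the median moved from above to below for 40S ribosomal proteins (a change of -0.52), 60S ribosomal proteins (-0.64), small GTPases (-0.50) and fatty acid and lipid synthesis (-0.56). In that order the dehydration medians were -0.07, -0.52, -0.14 and -0.06, so all but that of the 60S proteins lay near the median of all loci. For the 40S proteins the median without stress was 0.17 both relative to the same brightness and under quantile normalization. For the 60S proteins the median without stress was already below, at -0.15 relative to the same brightness and -0.24 under quantile normalization, so the turn does not appear under those settings.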

How the results depend on the processing

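No paired analysis was possible because each group has 1 array, and no array could be left out. The planned split by protein length was not run. Against 973 probe sets at least 2-fold higher and 1348 lower, median scaling gave 2087 and 657 and hybridization control scaling 2488 and 554, with 76.1% and 81.8% on the high side in place of 41.9%. For named loci these scalings gave 972 and 385, and 1174 and 333. With no brightness filter 2630 probe sets and 1560 loci were lower and 29.5% were on the high side; with the filter at percentile 75 there were 556 lower probe sets, 284 higher and 314 lower loci, and 54.8% on the high side. Lists 0.5 or more above all loci numbered 13 under quantile normalization and 7 with no filter, and those 0.5 or more below 8 under quantile normalization. Against loci of the same brightness, an alternative chosen after seeing the data, 13 lists were above and 8 below. With no filter the median turned to 0.05 for GRAS, TCP and MADS factors, -0.01 for SNAREs, exocyst and coat proteins (-0.07 with the filter at percentile 75), -0.09 for ion and nutrient transporters, -0.13 for lipid-transfer proteins, -0.01 for cytochromes P450 and -0.15 for subtilases; loci under the limit on both arrays then enter at a ratio of 0. Turns of list medians were counted where the median lay at least 0.25 from 0. No named gene past 2-fold turned under the scaling, limit, shared probe set and averaging alternatives. The dim side of the range is limited by signal over background.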
